A study of Mus musculus with 16 samples.

Results

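NRF2 targets and antioxidant enzymes were followed in mouse liver as 10 genes chosen by symbol: Nqo1, Hmox1, Gclc, Gclm, Txnrd1, Srxn1, Gsr, Cat, Gpx1 and Sod1. They were listed by name for their known roles, with no threshold on a value, after earlier results of these arrays had been seen. Of the 10, 9 had a named probe, each a single one, and no probe carried the symbol Gsr. A gene counted as measured when its detection p-value was under 0.01 on at least 4 of the 16 arrays, which held for 8 of the 10, among 6559 measured genes in all. Txnrd1 had a probe that was detected on 1 array, of an NMN mouse, and was not tested.

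All animals were female C57BL/6J mice, and total liver RNA was hybridised to single-colour Illumina bead arrays. Chip A carried livers of 4 mice on regular chow and 4 on a high-fat diet (HFD), and chip B carried 4 HFD livers and 4 livers of HFD mice given nicotinamide mononucleotide (NMN), a precursor of NAD, by intraperitoneal injection for 7 days. The animal numbers in the column names are the same for the HFD arrays of both chips, so these are repeat arrays of 4 mice, and the study holds 12 mice. The age of the mice, the composition of the diet and whether the untreated HFD mice were injected with vehicle were not stated in the sources used here.

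NRF2, encoded by Nfe2l2, is a transcription factor that the adaptor KEAP1 marks for degradation in unstressed cells. Oxidants and electrophiles modify KEAP1, NRF2 accumulates, pairs with a small MAF protein and binds antioxidant response elements beside genes that make glutathione, reduce thioredoxin and detoxify quinones. Liver is rich in these enzymes because it handles drugs, heme and fatty acid oxidation, while Cat, Gpx1 and Sod1 are abundant housekeeping scavengers of peroxide and superoxide that depend less on NRF2. Hmox1 is also held down by the heme-sensing repressor BACH1 and is strongly expressed in macrophages that clear red blood cells.

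Promoters of Nqo1, Gclm and Srxn1 are shown because these are the measured NRF2 target genes for which RefSeq sequence was at hand. Each runs 5′ to 3′ on the strand of the gene, from 250 bases before to 50 bases after the annotated start (RefSeq, GRCm38.p6). Capitals mark matches to the core of the antioxidant response element, searched on both strands as TGACNNNGC and as TGANTCAGC, forms that coincide where the fourth letter of the second is C.
Nqo1, chr8:107403156-107403455, minus strand: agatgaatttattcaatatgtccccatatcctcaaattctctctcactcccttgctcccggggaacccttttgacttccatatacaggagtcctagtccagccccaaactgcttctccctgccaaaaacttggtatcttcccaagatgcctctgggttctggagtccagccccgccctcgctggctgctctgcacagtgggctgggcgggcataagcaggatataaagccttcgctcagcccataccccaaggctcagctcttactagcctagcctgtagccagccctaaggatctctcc
Gclm, chr3:122245307-122245606, plus strand: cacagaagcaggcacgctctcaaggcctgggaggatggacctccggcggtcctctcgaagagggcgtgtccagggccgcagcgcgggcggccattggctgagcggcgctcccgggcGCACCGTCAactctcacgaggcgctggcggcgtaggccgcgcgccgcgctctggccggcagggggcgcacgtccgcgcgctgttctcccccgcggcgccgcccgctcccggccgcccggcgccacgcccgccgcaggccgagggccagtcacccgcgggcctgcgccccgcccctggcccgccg
Srxn1, chr2:152105274-152105573, plus strand: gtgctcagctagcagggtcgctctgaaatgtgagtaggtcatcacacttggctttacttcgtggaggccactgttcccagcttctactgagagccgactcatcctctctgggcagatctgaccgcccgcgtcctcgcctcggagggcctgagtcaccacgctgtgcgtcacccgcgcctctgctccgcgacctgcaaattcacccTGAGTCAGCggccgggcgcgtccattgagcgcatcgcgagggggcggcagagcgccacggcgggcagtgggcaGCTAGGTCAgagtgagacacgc
The first form was found in 12.4% of 32851 promoter windows and the second, added after the sequences were seen, in 1.19%. Windows were at hand for 7 of the 10 genes, 9 windows in all. TGACNNNGC stood in 4 windows, of Gclm, Srxn1, Sod1 and 1 of the 3 starts of Txnrd1, each time on the reverse strand. Gclm carried it as TGACGGTGC at bases -134 to -126 from the start. Srxn1 carried TGACCTAGC at bases 29 to 37 and was the only one of the 7 genes with the second form, TGAGTCAGC at bases -45 to -37. In the Nqo1 window neither was found, which says only that these letters do not occur in those 300 bases. A match is a string of letters and was not tested as a binding site.

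Each array had a mean signal of 202, since the authors had scaled it, and between 9473 and 10569 detected probes. Liver genes were abundant: Apoa1, an apolipoprotein, had signals of 13187 to 17457 and Ttr, transthyretin, of 11882 to 15320, while the single named Alb probe was dim, at 57.4 to 102. Values below are log2 signals after background correction and quantile normalization over all 16 arrays, and every change was tested with limma on the 8 arrays of 1 chip, with the Benjamini-Hochberg adjustment of p-values across all 6559 genes. The number of arrays limits the precision.

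Hmox1, heme oxygenase, which splits heme into biliverdin, iron and carbon monoxide, was the only measured member that rose with the diet. Its log2 signal was 5.83, 5.44, 5.71 and 5.93 in chow mice 1 to 4. HFD mice 1 to 4 read 6.67, 6.99, 6.68 and 6.13 on chip A. All 4 HFD mice lay above all 4 chow mice, as did 7.39% of the measured genes. The log2 change was 0.89 (SE 0.17, 95% interval 0.50 to 1.28, n = 4 arrays a group), or 1.85-fold, with an adjusted p = 0.0243 in limma. In the signals as scaled by the authors the chow arrays read 57.9 to 73.5 and the HFD arrays 83.7 to 157.

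Among the 8 measured members this was 1 call, where 6.19% of the 6559 genes were called in either direction and 3.06% were called higher, so the count rests on a single gene. The median log2 change of the 8 was -0.04, against -0.01 over all measured genes, with 2 positive and 6 negative. Without HFD mice 2 and 3, 5 of the 8 were positive. Leaving out chow mouse 1, 2 or 4 took the adjusted p of Hmox1 to 0.0577, 0.0636 and 0.0525, and leaving out HFD mouse 3 took it to 0.0631, each past the threshold of 0.05. Its change was 0.67 without HFD mice 2 and 3 together (adjusted p = 0.129).

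**Figure D1:**
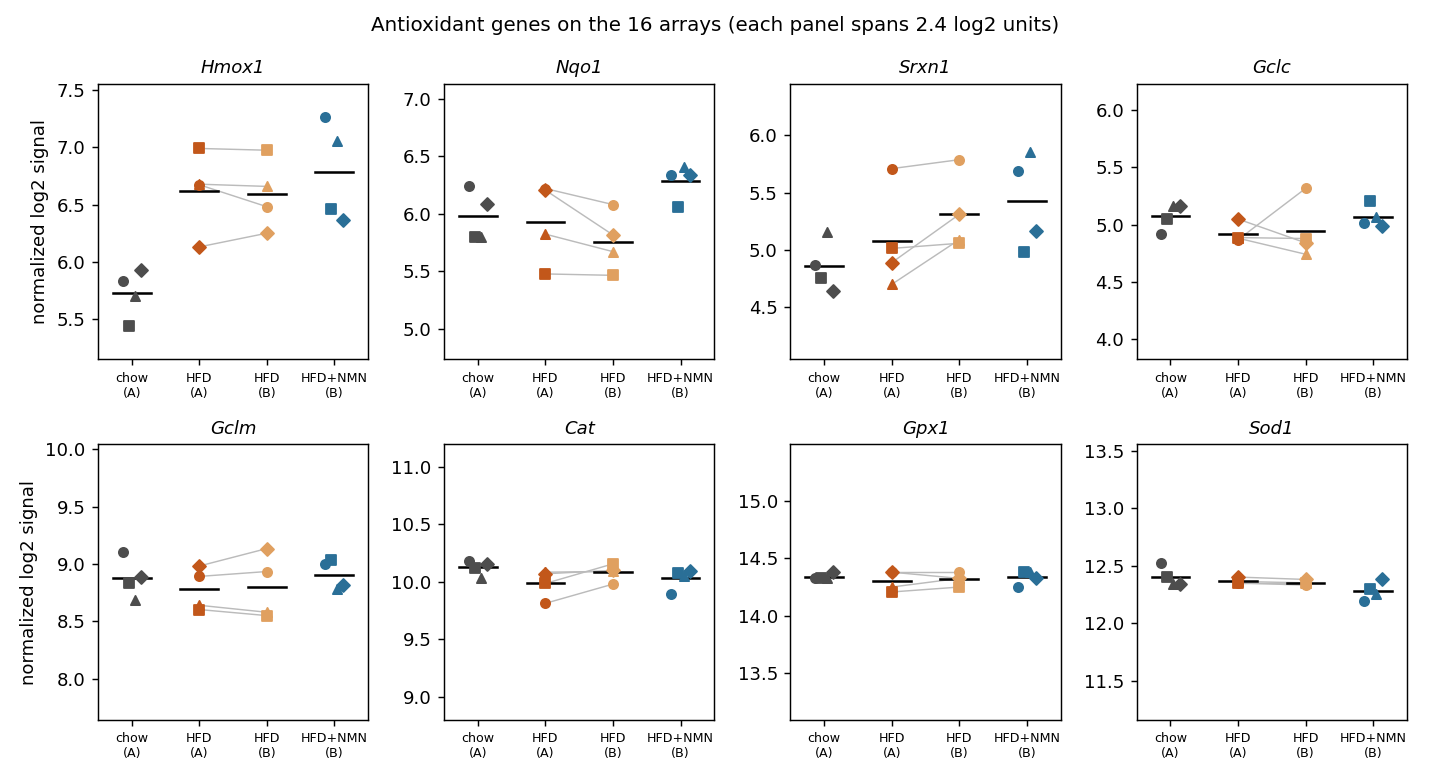
Normalized log2 signal (y axis, 2.4 log2 units in each panel) of the 8 measured members in the 4 groups (x axis, chip in brackets). Points are arrays, with circle, square, triangle and diamond for mice 1 to 4, bars are group means, and grey lines join the 2 arrays of an HFD mouse. Hmox1 is higher on every HFD and NMN array than on every chow array, and all Gpx1 values lie between 14.21 and 14.38.

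Nqo1, a quinone reductase and a common readout of NRF2 activity, had log2 signals of 6.24, 5.80, 5.80 and 6.09 in chow mice and 6.22, 5.48, 5.82 and 6.21 in HFD mice on chip A. The groups overlapped, with HFD mouse 2 below every chow mouse, and the log2 change of Nqo1 was -0.05 (SE 0.18, 95% interval -0.44 to 0.34, adjusted p = 0.894). Srxn1, sulfiredoxin, which repairs over-oxidised peroxiredoxins, read 4.87, 4.76, 5.16 and 4.64 in chow and 5.71, 5.01, 4.70 and 4.89 in HFD. HFD mouse 1 alone stood above all chow mice in Srxn1, and the log2 change was 0.22 (SE 0.20, 95% interval -0.23 to 0.68, adjusted p = 0.552). Without HFD mouse 1 that change was 0.01. Srxn1 was a dim probe, detected on 14 of 16 arrays.

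The 2 subunits of glutamate-cysteine ligase, the enzyme that sets the rate of glutathione synthesis, did not pass for the diet. The catalytic subunit Gclc lay between 4.92 and 5.17 in chow and between 4.87 and 5.05 in HFD. It was detected on 15 of 16 arrays, with a log2 change of -0.15 (SE 0.09, 95% interval -0.34 to 0.04, adjusted p = 0.308). The modifier subunit Gclm was detected on all 16 arrays and lay between 8.69 and 9.10 in chow and 8.60 and 8.98 in HFD. Its log2 change was -0.10 (SE 0.12, 95% interval -0.36 to 0.16, adjusted p = 0.655).

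The scavengers themselves had narrow intervals that included 0. Cat, the peroxisomal catalase, read 10.18, 10.12, 10.04 and 10.16 in chow and 9.81, 9.99, 10.08 and 10.07 in HFD, a log2 change of -0.14 (SE 0.08, 95% interval -0.33 to 0.05, adjusted p = 0.353). HFD mouse 1, which was highest in Srxn1, was lowest in Cat. Sod1, the cytosolic superoxide dismutase, changed by -0.04 (95% interval -0.20 to 0.13, adjusted p = 0.811). Gpx1, a selenium-dependent glutathione peroxidase, gave -0.03 (95% interval -0.20 to 0.13, adjusted p = 0.814). Its probe ranked 1 to 4 by signal on each array, so quantile normalization left it with 4 possible values, between 14.21 and 14.38, and its normalized change and SE are limited by this. As scaled by the authors, Gpx1 signals ranged from 20651 to 24044 in chow and from 18509 to 24015 in HFD on chip A.

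**Figure D2:**
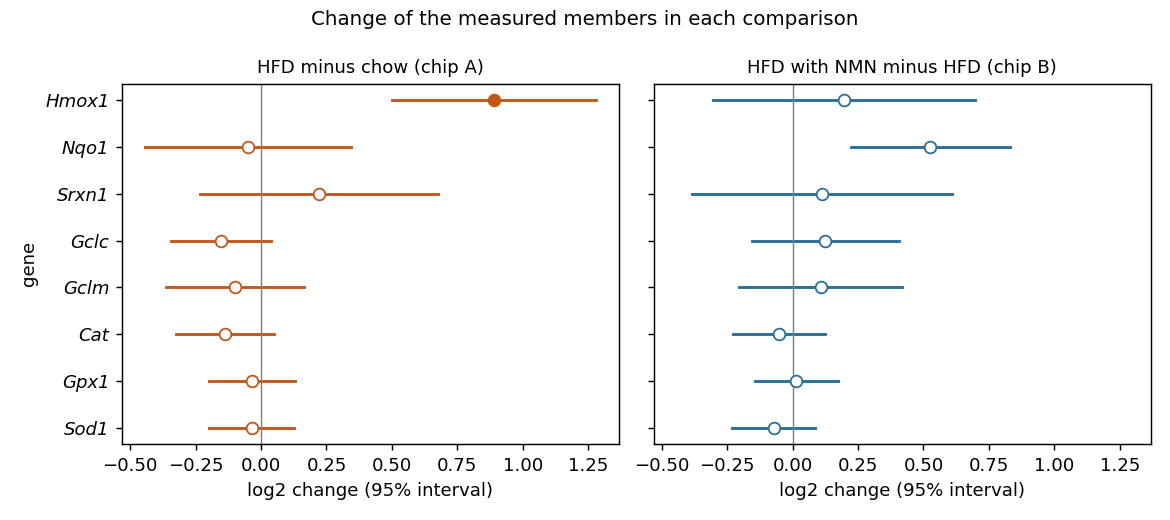
Log2 change (x axis) of each measured member (y axis) for HFD minus chow on chip A and HFD with NMN minus HFD on chip B, from 4 arrays a group. Lines are 95% intervals of limma and filled points have an adjusted p under 0.05. Hmox1 is the only filled point, at 0.89 for the diet, and for NMN the interval of Nqo1 runs from 0.22 to 0.83.

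Macrophage markers were set beside Hmox1. Of 15 such markers 12 were measured, and 5 rose with the diet: Cd14 (1.12, SE 0.19), Lyz2 (1.65, SE 0.36), Clec4f (0.98, SE 0.22), C1qc (1.20, SE 0.29) and C1qb (1.18, SE 0.29). Over all measured genes 3.06% were called higher. All 12 macrophage changes were positive, with a median log2 change of 0.96. Of these, Timd4 was detected on only 5 arrays and Fcgr1 on 6. The summed signal of the 12 ranged from 1805 to 3298 in chow, 3443 to 6816 in HFD on chip A, 3452 to 6897 in HFD on chip B and 3223 to 9161 with NMN. Cd68, Cd5l and Csf1r were not measured. On chip A, HFD mice 1 to 4 had list means of 0.50, 1.42, 1.02 and 0.40 over the chow mean, with mouse 2 highest and mouse 4 lowest, as in Hmox1. In NMN mice 1 to 4 it was 1.53, 0.51, 0.92 and 0.28, again in the order of their Hmox1 values. Among the 4 chow mice the order differed, with mouse 3 highest in the macrophage list at 0.28 and mouse 4 highest in Hmox1. The part of macrophage RNA in the Hmox1 difference was not tested, and in whole liver more cells of a type and more RNA per cell cannot be told apart.

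Of 12 erythroid markers 5 were measured, and Slc4a1, the anion exchanger of red blood cells, rose (1.88, SE 0.43, adjusted p = 0.0356). The other 4 did not pass, with Hbb-bt at 0.61, Hba-a1 at 0.49, Alas2 at 0.22 and Klf1 at -0.30. The list's summed signal was 4272 to 12047 in chow and 9493 to 14737 in HFD on chip A, 9560 to 13921 in HFD on chip B and 7393 to 17210 with NMN, and Ahsp was among the 7 not measured. Of 15 genes listed as neutrophil markers 11 were measured and 1 passed, Il1b (1.89). S100a8, S100a9 and Mpo did not pass in limma (adjusted p = 0.0903, 0.0966 and 0.184), so the Il1b call is not read as a result for neutrophils. All 11 changes were positive, with a median log2 change of 1.06. Camp, Ngp, Mpo and Retnlg were detected on 4 arrays each, the fewest that count as measured, and Elane on 5. Such dim genes can enter through the mice in which they are high, so these signs and this median are not read as a result. The summed signal of the 11 was 576 to 1266 in chow and 746 to 7493 in HFD on chip A. It was 755 to 6851 in HFD on chip B and 1269 to 3709 with NMN, and Ly6g was not measured. Of 12 endothelial markers 10 were measured and 1 rose, Lyve1 (0.78, SE 0.17, adjusted p = 0.0312), with 8 changes positive. Their summed signal was 2783 to 3976 in chow and 3529 to 3875 in HFD on chip A. Of 14 hepatocyte markers 11 were measured and 1 fell, Cps1 (-0.68, SE 0.13, adjusted p = 0.0214), with 8 changes negative. Their summed signal was 96548 to 103554 in chow and 89649 to 99531 in HFD on chip A. Each of these lists gave 1 call, where 6.19% of all measured genes were called in either direction. The part of these lists in the Hmox1 difference was not tested.

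**Figure D3:**
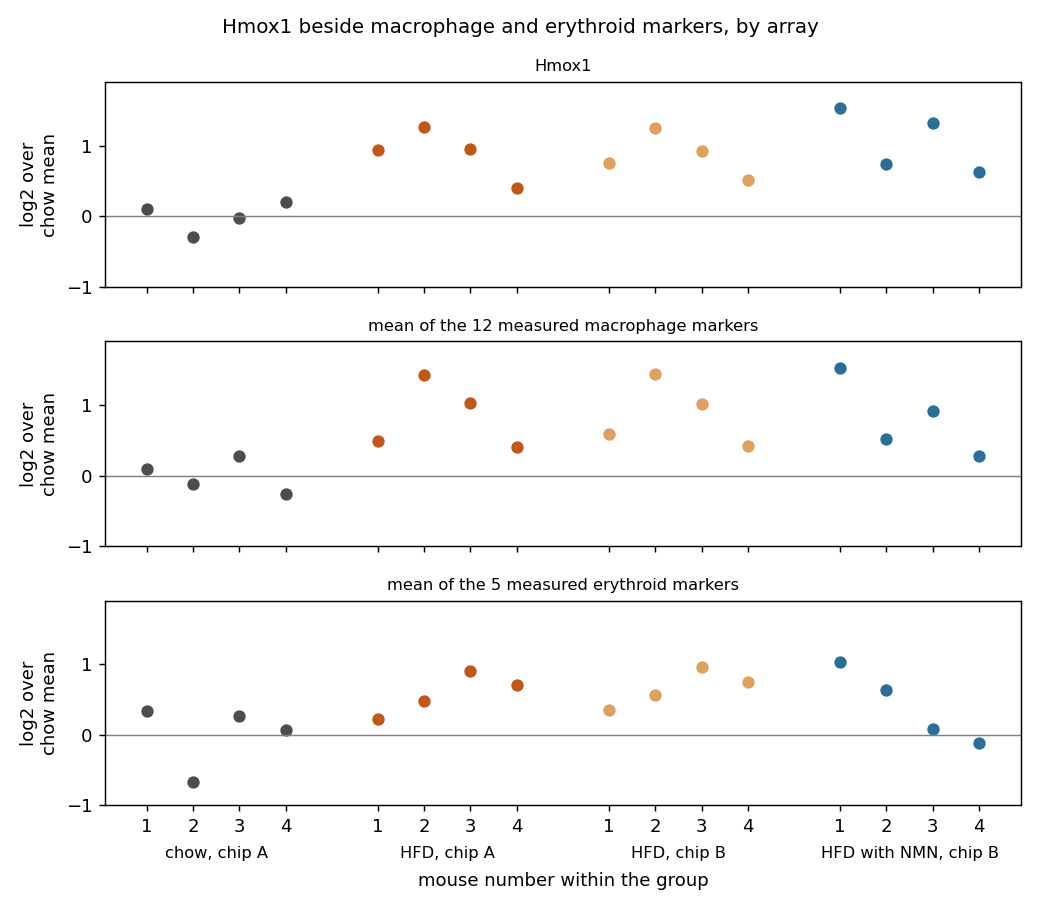
Hmox1 and the means of the 12 measured macrophage and 5 measured erythroid markers on each array, in log2 units over the chow mean (y axis), by mouse number within each group (x axis). HFD mouse 2 and NMN mouse 1 are highest in both Hmox1 and the macrophage list of their group. The erythroid list follows another order among the HFD mice, while NMN mouse 1 is highest in it among the NMN mice (1.04). In the mean of the endothelial list, not drawn, HFD mouse 2 (0.41 on chip A, 0.39 on chip B) and NMN mouse 1 (0.34) were highest too. In the mean of the neutrophil list, which is not drawn, HFD mouse 2 and NMN mouse 1 were also highest. By summed signal of that list, HFD mouse 1 was highest on both chips (7493 and 6851) and NMN mouse 2 among the NMN mice (3709).

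The genes whose pattern was most like Hmox1 were Cd14, a co-receptor for bacterial lipopolysaccharide, Lgals3, galectin-3, and Wdr1, an actin-disassembly factor. Likeness was Pearson's r of deviations from the group mean over the 16 arrays of 12 mice, and was 0.93, 0.90 and 0.90. The points share arrays and, for HFD, mice. Cd14 and Lgals3 rose with the diet (1.12, adjusted p = 0.0162, and 1.71, adjusted p = 0.0214), while the log2 change of Wdr1 was 0.13 (adjusted p = 0.387).

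Among the members themselves the deviations followed no single pattern. Over the 28 pairs of the 8 measured genes the median r was 0.14, with 15 pairs positive, from -0.83 for Srxn1 and Cat to 0.67 for Nqo1 and Gpx1. Nqo1 and Gclm gave 0.64. Hmox1 had r of -0.24 with Nqo1, -0.44 with Gclm and 0.26 with Srxn1. These values describe 16 arrays that hold 12 mice.

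Under NMN, 0 of the 8 measured members and 0 of 6559 genes (0%) passed in limma, and 567 genes (8.64%) had an unadjusted p under 0.05. Nqo1 was the single member among these. Its log2 signal was 6.08, 5.46, 5.67 and 5.82 in HFD mice on chip B and 6.34, 6.06, 6.41 and 6.33 in NMN mice. The groups met only where NMN mouse 2 (6.06) lay just under HFD mouse 1 (6.08), and the other 3 NMN mice were above every HFD mouse. The log2 change was 0.53 (SE 0.14, 95% interval 0.22 to 0.83, unadjusted p = 0.00334), with an adjusted p = 0.318. It was 0.43 without HFD mouse 2 and 0.34 without HFD mice 2 and 3 (adjusted p = 0.434 and 0.612).

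Hmox1 stood at 6.48, 6.98, 6.66 and 6.25 in HFD mice on chip B and at 7.27, 6.47, 7.06 and 6.36 in NMN mice. NMN mice 1 and 3 lay above all HFD mice, and mice 2 and 4 within their range, so the groups overlapped. The log2 change was 0.20 (SE 0.22, 95% interval -0.30 to 0.70, adjusted p = 0.880). Leaving out NMN mouse 1 took the change of Hmox1 to 0.036, leaving out HFD mouse 4 to 0.082 and leaving out NMN mouse 3 to 0.11. It was 0.34 without NMN mouse 4, 0.32 without HFD mouse 2 and 0.30 without NMN mouse 2, and none of these changes passed the test. The lowest NMN value of Hmox1, 6.36, was above the highest chow value, 5.93, but these groups were on different chips and were not compared in a test. Srxn1 read 5.79, 5.06, 5.09 and 5.31 in HFD and 5.69, 4.98, 5.85 and 5.17 with NMN, a log2 change of 0.11 (95% interval -0.38 to 0.61, adjusted p = 0.950).

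Gclc and Gclm had log2 changes of 0.12 (95% interval -0.16 to 0.41, adjusted p = 0.847) and 0.11 (95% interval -0.20 to 0.42, adjusted p = 0.907). Those of Cat, Sod1 and Gpx1 were -0.05, -0.07 and 0.01, with adjusted p-values of 0.919, 0.839 and 0.987. Sod1 read 12.33 to 12.38 in HFD on chip B and 12.19 to 12.38 with NMN. The median change of the 8 was 0.11, against -0.0033 over all genes, with 6 positive and 2 negative. Without HFD mice 2 and 3 only 2 of the 8 were positive, and without NMN mouse 3 it was 4.

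The repeat arrays of the 4 HFD mice show how far each member can be read. Hmox1 on chip B minus chip A was -0.19, -0.02, -0.02 and 0.12 in mice 1 to 4, and mouse 2 was highest and mouse 4 lowest on both chips. The SD between the 2 arrays of a mouse, with the mean shift between chips removed, was 0.09 for Hmox1. It stood against an SD of 0.36 between mice on chip A. For Nqo1 these were 0.11 and 0.35, and all 4 mice read lower on chip B, by a mean log2 difference of -0.17. Srxn1 read higher on chip B in all 4 mice, by 0.23 on average. Gclc was the exception, with an SD of 0.21 between arrays of a mouse and 0.09 between mice: mouse 1 went from 4.87 on chip A to 5.32 on chip B. The median over all measured genes was 0.07 between arrays and 0.14 between mice.

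The regulators of NRF2 did not pass in either comparison, where 6.19% of all measured genes were called for the diet and 0% for NMN. Of 16 genes listed, 11 were measured, and Nfe2l2 itself was detected on 0 arrays. For the diet the smallest p-values belonged to Gsk3b, a kinase that marks NRF2 for degradation (log2 change -0.28, SE 0.10, adjusted p = 0.125), and Mafg, a partner of NRF2 (-0.31, SE 0.11, adjusted p = 0.130). For NMN they were those of Mafg (0.32, SE 0.12, adjusted p = 0.492) and Bach1 (-0.15, SE 0.09, adjusted p = 0.703). Bach1, the repressor of Hmox1, had the largest change of the list for the diet, -0.42 (SE 0.17, unadjusted p = 0.0300, adjusted p = 0.155). It did not pass, and its part in the Hmox1 difference was not tested. The list's median was -0.02 for the diet and 0.03 for NMN.

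Other target genes of NRF2 gave 0 calls of 15 measured among 25 in both comparisons. Over all measured genes the share called was 6.19% for the diet and 0% for NMN. For the diet, the smallest p-values were those of Abcc2, which exports glutathione conjugates into bile (-0.32, SE 0.11, adjusted p = 0.119), and Taldo1 of the pentose phosphate pathway (0.19, SE 0.10, adjusted p = 0.273). For NMN they were those of Ephx1, a microsomal epoxide hydrolase (0.52, SE 0.14, unadjusted p = 0.00479, adjusted p = 0.349), and Ugt1a6a, a glucuronosyltransferase (0.36, SE 0.12, adjusted p = 0.466). The medians were 0.05 and 0.05, with 10 and 13 of 15 positive, where 3126 and 3213 of all 6559 genes were positive.

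In the wider glutathione and thioredoxin system 27 of 35 genes were measured, and the diet gave 1 rise and 1 fall, a share near the 6.19% called over all genes. Gpx8, a peroxidase of the endoplasmic reticulum, rose by 0.43 (SE 0.10, adjusted p = 0.0437), and Prdx4, a peroxiredoxin of the same compartment, fell by 0.49 (SE 0.11, adjusted p = 0.0397). Under NMN 0 of 27 passed, with Oplah, 5-oxoprolinase, at -0.47 (SE 0.16, adjusted p = 0.454) and Gpx3, plasma glutathione peroxidase, at 0.52 (SE 0.18, adjusted p = 0.473). Among genes of oxidant production and heme turnover, 14 of 20 were measured. For the diet 1 rose and 1 fell, where 6.19% of all genes were called in either direction. Cyba, the membrane subunit of the phagocyte NADPH oxidase, rose by 1.10 (SE 0.28, adjusted p = 0.0473), and Xdh, xanthine dehydrogenase, fell by 0.47 (SE 0.09, adjusted p = 0.0209). Cyba is also the partner of Nox4, whose own difference between the diets was -0.41 on the log2 scale (SE 0.18, adjusted p = 0.187). The part of macrophage RNA in the Cyba difference was not tested. Beside the rise of Hmox1, the log2 change of Hmox2, the constitutive heme oxygenase, was -0.01 (SE 0.10, adjusted p = 0.948). Under NMN 0 of the 14 passed, with Alas1, the first enzyme of heme synthesis, at 0.38 (SE 0.18, adjusted p = 0.601) and Hmox2 at -0.17 (SE 0.11, adjusted p = 0.722).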

How the data were processed

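Liver RNA had been measured on 16 arrays in 4 groups of 4. For 25697 probes the deposited table gives an intensity, which the authors scaled to one mean per array without subtracting background, and a detection p-value beside each, per the file headers. The z score of another deposited table was set by the authors to mean 0 and SD 1 within each array. The sources used here do not name the software. Intensities were background-corrected and quantile normalized with neqc (offset 16) of limma 3.58.1 in R 4.3.3. The offset draws log2 differences between arrays toward 0 at low signal. Symbols came from the platform annotation through Entrez numbers of GRCm38.p6 for 16850 probes; 8847 probes had none. Of several measured probes of a gene, the one with the highest mean was used. Each comparison was fitted with limma (lmFit, eBayes) on the 8 arrays of its chip, so that no mouse entered a fit more than once. The script was tested on simulated data. The members, gene lists and alternatives were chosen with earlier results of these data known. All members were named. In the other lists, the genes that passed (up to 6) or the 2 with the smallest p were named. The changes of Bach1, Nox4 and Hmox2 for the diet, and of Gsta2 for NMN, were given outside this rule. Other genes of their lists had smaller p-values in limma. Same-numbered arrays were correlated across genes after the group mean of each gene was subtracted. This r, of deviations and not of whole profiles, was 0.765 to 0.892 for HFD on both chips. It was -0.007 to 0.237 for chow and HFD and -0.275 to 0.328 for HFD and NMN, so the comparisons were not paired.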

Additional observations from a re-analysis of the deposited data

Results flagged for a closer look

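A sample far from the others of its group was looked for in 32 sets of 4 arrays (8 genes in 4 groups) with Dixon's ratio. The ratio marked 2 sets. Chance marks about 5% of sets of untied values, a rate that does not hold for Gpx1, whose normalized values are tied. The same HFD mice also enter on both chips. Gclc in HFD mouse 4 on chip A had a log2 signal of 5.05, with the next value at 4.89. On chip B the same mouse read 4.84 in Gclc, within the range of the group. Gpx1 in chow mouse 4 had a normalized value of 14.38, while the other 3 chow mice all had 14.32. With 3 tied values the ratio is 1 however small the gap. On that array Gpx1 was the brightest probe, against the second brightest on the other 3, yet its signal as scaled by the authors, 20651, was the lowest of the chow arrays (21407, 24044 and 23408 in mice 1 to 3). The order of the chow mice in Gpx1 is thus opposite on the 2 scales for mouse 4.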

How the results depend on the processing

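The count of genes changed by the diet, 406, was 255 with the authors' scaling only, 123 with no filter on detection, 266 with z scores, 687 with array weights, 69 without HFD mice 2 and 3, and 77 to 498 with each array left out. The count of members called, 1, was 0 with no filter on detection (Hmox1 adjusted p = 0.0814, with 16538 genes tested) and 0 without HFD mice 2 and 3, and 0 to 1 with each array left out. For NMN the count of genes was 0 to 1 with each array left out, the 1 without HFD mouse 4, and 0 in the other alternatives, and members gave 0 throughout. Over 19 alternatives Hmox1 stayed positive for the diet, at 0.67 to 1.05 on the log2 scale and 0.48 in z units, with adjusted p from 0.00903 to 0.129. The log2 change of Nqo1 for NMN stayed positive, at 0.34 to 0.63, and 0.19 in z units, with adjusted p from 0.182 to 0.754. Signs turned only in members that did not pass. For the diet these were Nqo1 (0.039 with the authors' scaling, 0.23 without HFD mice 2 and 3, -0.15 to 0.10 with each array left out), Gpx1 (0.0095 in z units, 0.041 without HFD mice 2 and 3), Gclm (0.059 without HFD mice 2 and 3) and Sod1 (-0.057 to 0.0055 with each array left out). For NMN they were Gpx1 (-0.040 with the authors' scaling, -0.046 in z units, -0.019 without HFD mice 2 and 3, -0.0098 to 0.041 with each array left out), Gclc (-0.0095), Gclm (-0.13) and Srxn1 (-0.13) without HFD mice 2 and 3, and Srxn1 (-0.032 to 0.27) with each array left out. The causes were not tested. With detection required on all 8 arrays Srxn1 had no diet value and Gclc no NMN value. The replicate block gave 480 genes for the diet and 0 for NMN. Hmox1 kept its call under the replicate block (adjusted p = 0.0429). Dim probes, Gclc and Srxn1, limit what can be read.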

Other observations

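Glutathione S-transferases, which join glutathione to electrophiles and of which several are NRF2 targets, were read in both comparisons, which use the same 4 HFD mice with opposite sign. A deviation of those mice alone would move the diet and NMN changes in opposite directions, so no relation is read from opposite signs. Of 21 genes 18 were measured, and 0 passed in either comparison, where 6.19% of all measured genes were called for the diet and 0% for NMN. For the diet 14 log2 changes were negative, with a median of -0.23, against a median of -0.01 over all genes. For NMN 15 were positive, with a median of 0.22, against -0.0033 over all genes. Gsta2 had log2 changes of -0.96 for the diet (SE 0.26, adjusted p = 0.0631) and 1.48 for NMN (SE 0.45, adjusted p = 0.419). Gsta4 gave -0.84 for the diet (SE 0.24, adjusted p = 0.0721). Mgst3, a microsomal member, gave 0.44 for NMN (SE 0.12, adjusted p = 0.340), and Gstm4 gave 0.43 (SE 0.13, adjusted p = 0.414).

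Txnrd1, cytosolic thioredoxin reductase, had signals of 36.5 to 49.1 on all 16 arrays and was detected on 1, in NMN mouse 3. In the fit with no filter on detection its log2 change was -0.11 for the diet (SE 0.05, adjusted p = 0.370) and 0.06 for NMN (SE 0.07, adjusted p = 0.956).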
